A study of Mus musculus with 6 samples.

Results

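The genes described here encode the extracellular matrix of a fibroblast: 36 genes for collagen chains, elastic fibre proteins, basement membrane components, proteoglycans, adhesive glycoproteins and the enzymes or chaperones that fold and crosslink collagen. They were taken by gene symbol from a fixed list. A probe set, the group of probes on an array that reads 1 transcript, was used if the platform annotation gave it 1 of these symbols alone. Of the 36 genes, 34 had at least 1 such probe set (82 probe sets in all, of 45037 on the array without controls), and the brightest stood for its gene. Fbn1 had none, and Loxl2 was found only on probe sets that carry a second symbol, so both are named without a value. A further pair, Fbn2 and Lum, lay below the filter on low intensity, which left 32 genes tested among 11846 in the whole series.

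The samples were 3 tethered and 3 untethered cultures, each numbered 1 to 3 in the labels, with 1 Affymetrix array of biotin-labelled total RNA per sample. In tethered cells the inserted DNA was held inducibly at the inner nuclear membrane, at the periphery, and in untethered cells it lay centrally in the nucleus. All 6 samples were NIH3T3, an immortalised mouse fibroblast line, and all belonged to 1 clone, clone M, which carries many insertions of lacO, the DNA element that the lac repressor binds. All were grown in the same medium with serum, so the results concern 1 clone of a cell line, and the sources used here do not say how tethering was switched on.

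Collagens are triple helices of chains rich in glycine. Fibrillar collagens form the tensile fibres of connective tissue, network-forming collagens build basement membranes with laminins and nidogen, and elastic fibres consist of elastin on a scaffold of fibrillins and fibulins. Small leucine-rich proteoglycans such as decorin and biglycan bind collagen fibrils, and the matricellular proteins tenascin C and the thrombospondins change how cells attach to the matrix. Fibroblasts are the main source of these proteins in connective tissue, and their output of matrix is known to depend on growth state, serum and cell density.

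Values are log2 intensities. The median intensity of an array lay between 482.4 and 490.9. Both arrays numbered 1 stood apart on the first principal component of the tested probe sets (62.1% of their variance), at -38.0 for the tethered and -30.3 for the untethered one, with the other 4 arrays between 5.49 and 26.6. Of 9 fibroblast marker genes, 8 passed the intensity filter, against 3 of 6 for macrophage, endothelial and muscle markers each, 2 of 6 for epithelial and 1 of 6 for adipocyte markers. Of all 18193 genes with a probe set of 1 symbol, 11846 passed it. No detection calls were used here, the number of arrays limits the precision, and the labels do not say whether samples of a group were grown apart, so p-values measure the spread between these samples.

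Between tethered and untethered cells no matrix gene passed the adjusted threshold. The limma test called 0 of 32 genes, where it called 0% of 22518 probe sets, with an adjusted p of 0.9994 for every member. At an unadjusted p under 0.05 the test also gave 0 of 32 members, against 2.44% of all tested genes. Values lay below 0 (lower in tethered cells) for 24 of 32 members, against 58.8% of all tested genes. The median log2 difference of the members, tethered minus untethered, was -0.15, beside -0.02 for all tested genes. Of the marker lists, the 6 endothelial markers had a summed intensity of 2946 to 3001 in tethered cells, against 2675 to 2832 in untethered cells. The 3 that were tested had groups that did not overlap, as 8.4% of all tested genes did. So did 1 of 8 tested fibroblast markers, Pdgfrb (difference -0.73, SE 0.24), and 1 of 3 tested macrophage markers, Adgre1 (difference -0.25, SE 0.092). The 9 fibroblast markers summed to 55168 to 70470 in tethered cells, against 61876 to 71459 in untethered cells. The part of any marker list in these matrix differences was not tested. All 6 samples were 1 clone of a fibroblast line, so the marker lists are not read as counts of other cell types. In bulk samples such as these, fewer cells that express a gene and less RNA per cell cannot be told apart.

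Fibrillar collagens differed between the groups by less than the spread between arrays. Col1a1, the first chain of type I collagen, had log2 intensities of 11.93, 13.13 and 12.91 in tethered replicates 1, 2 and 3, against 12.48, 12.94 and 12.80 in untethered replicates 1, 2 and 3 (difference -0.08, SE 0.32). The groups overlapped, and the lowest value belonged to tethered replicate 1. Col1a2, the partner chain of type I collagen, had 14.07, 14.31 and 14.22 in tethered cells, against 14.29, 14.21 and 14.16 in untethered cells (difference -0.02, SE 0.085). On the brightest probe sets it was the steadier of the pair. Col3a1, the chain of type III collagen, had 11.18, 12.79 and 12.72 in tethered cells, against 12.04, 12.75 and 12.93 in untethered cells (difference -0.34, SE 0.48). Both replicates numbered 1 were low for Col3a1, and the other 4 arrays lay close together. Of the type V chains, which help to set fibril diameter, Col5a1 had 11.32, 11.79 and 11.79 in tethered cells, against 11.69, 11.84 and 11.86 in untethered cells (difference -0.16, SE 0.15). A dimmer tested Col5a1 probe set had groups that did not overlap, lower in tethered cells (difference -0.32, SE 0.17). Col5a2 had a difference of 0.09 (SE 0.21).

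On the brightest probe set, the groups also overlapped for every other collagen and every basement membrane gene. The 3 chains of type VI collagen, a beaded filament around cells, had differences of -0.21 (Col6a1, SE 0.27), -0.21 (Col6a2, SE 0.29) and -0.19 (Col6a3, SE 0.45). In each of the 3, tethered replicate 1 was the lowest array. Col12a1, a collagen that sits on the surface of fibrils, had 10.85, 11.06 and 11.02 in tethered cells, against 10.77, 10.50 and 10.87 in untethered cells, and its difference of 0.26 (SE 0.12) was the largest above 0 among the members. Even so its groups overlapped, since tethered replicate 1 lay below untethered replicate 3. Col4a1 and Col4a2, the chains of the main basement membrane collagen, had differences of 0.03 (SE 0.39) and -0.18 (SE 0.41). Col18a1, which carries the endostatin fragment, had 9.73, 9.31 and 9.38 in tethered cells, against 9.79, 9.69 and 9.53 in untethered cells (difference -0.20, SE 0.13). Its second tested probe set had groups that did not overlap, in the other direction, at 9.31, 9.26 and 9.31 in tethered cells, against 9.19, 9.15 and 9.12 in untethered cells (difference 0.14, SE 0.060). Lamc1, a laminin chain, had 10.22, 10.03 and 10.27 in tethered cells, against 10.25, 10.32 and 10.43 in untethered cells (difference -0.16, SE 0.091). The laminin chain Lamb1 had a difference of -0.19 (SE 0.13), and Nid1, nidogen, which bridges laminin and type IV collagen, had -0.06 (SE 0.14). On the second tested Nid1 probe set the groups did not overlap, with higher values in tethered cells (difference 0.32, SE 0.15).

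Elastic fibre genes held the 2 members whose groups did not overlap on the brightest probe set, 1 in each direction, where 8.4% of all tested genes and 8.16% of all tested probe sets had groups that did not overlap. Fbln5, a fibulin needed to assemble elastin, had 12.08, 12.54 and 12.63 in tethered cells, against 12.82, 12.71 and 12.74 in untethered cells (difference -0.34, SE 0.15, unadjusted p = 0.0654 by limma). Every tethered array lay below every untethered one, with tethered replicate 1 the farthest. Fbln1, another fibulin of elastic fibres and basement membranes, had 9.16, 9.04 and 9.03 in tethered cells, against 8.98, 8.94 and 8.93 in untethered cells (difference 0.13, SE 0.066, unadjusted p = 0.0995 by limma). It was the member that passed the intensity filter most narrowly, with a mean log2 intensity of 9.01 against a filter at 8.93, while Lum and Fbn2 missed it at 8.69 and 8.60. Its other probe sets lay below the filter and had differences of -0.08 and -0.12, with the second having groups that did not overlap, lower in tethered cells. Eln, elastin itself, had 10.10, 10.18 and 10.15 in tethered cells, against 10.11, 10.05 and 10.05 in untethered cells (difference 0.08, SE 0.061). Fbln2 had a difference of -0.03 (SE 0.067).

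For the tested crosslinking and folding genes and proteoglycans the groups overlapped on the brightest probe set. Lox, lysyl oxidase, which crosslinks collagen and elastin, had 12.71, 13.30 and 13.30 in tethered cells, against 13.32, 13.21 and 13.29 in untethered cells (difference -0.17, SE 0.17). Its relative Loxl1 had 12.31, 12.21 and 12.31 in tethered cells, against 12.19, 12.44 and 12.44 in untethered cells (difference -0.08, SE 0.091). Serpinh1, the collagen chaperone HSP47, had 13.29, 13.15 and 13.33 in tethered cells, against 13.26, 13.02 and 13.27 in untethered cells (difference 0.08, SE 0.099). Neither gene set the groups apart on its brightest probe set. The dimmer tested Loxl1 probe set had groups that did not overlap, lower in tethered cells (difference -0.04, SE 0.058). Bgn, biglycan, had 13.65, 13.76 and 13.75 in tethered cells, against 13.73, 13.75 and 13.71 in untethered cells (difference -0.01, SE 0.063). Dcn, decorin, had 11.23, 12.39 and 12.47 in tethered cells, against 12.36, 12.35 and 12.48 in untethered cells (difference -0.36, SE 0.33). On the brightest probe sets of Lox and Dcn the low value in tethered replicate 1 stood alone, and the other 5 arrays lay close together. On the second tested Lox probe set, untethered replicate 2 was low as well, at 12.71 beside 12.60 in tethered replicate 1 (difference between the groups 0.04). The dimmer Dcn probe set had 9.30, 9.27 and 9.29 in tethered cells, against 9.43, 9.30 and 9.23 in untethered cells. Vcan, versican, a large proteoglycan that binds hyaluronan, had a difference of -0.21 (SE 0.32).

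Adhesive glycoproteins had the widest spread between arrays. Fn1, fibronectin, had 13.61, 13.79 and 13.66 in tethered cells, against 14.00, 13.87 and 13.64 in untethered cells (difference -0.15, SE 0.11). Postn, periostin, had 9.94, 9.67 and 9.65 in tethered cells, against 10.11, 10.03 and 9.88 in untethered cells. Of the members it had the smallest unadjusted p by limma (difference -0.25, SE 0.11, unadjusted p = 0.0622 by limma). Its groups overlapped, since tethered replicate 1 lay above untethered replicate 3. Sparc, a glycoprotein that binds collagen and calcium, had 12.62, 13.32 and 13.24 in tethered cells, against 12.97, 13.04 and 13.15 in untethered cells (difference 0.01, SE 0.19). The differences of Tnc (-0.14, SE 0.85) and Thbs1 (0.19, SE 1.17) were small beside their errors, and that of Thbs2 (-0.56, SE 0.54) was close to its error. These errors come from a fit without replicate number, so they hold the spread between numbers.

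**Figure D1:**
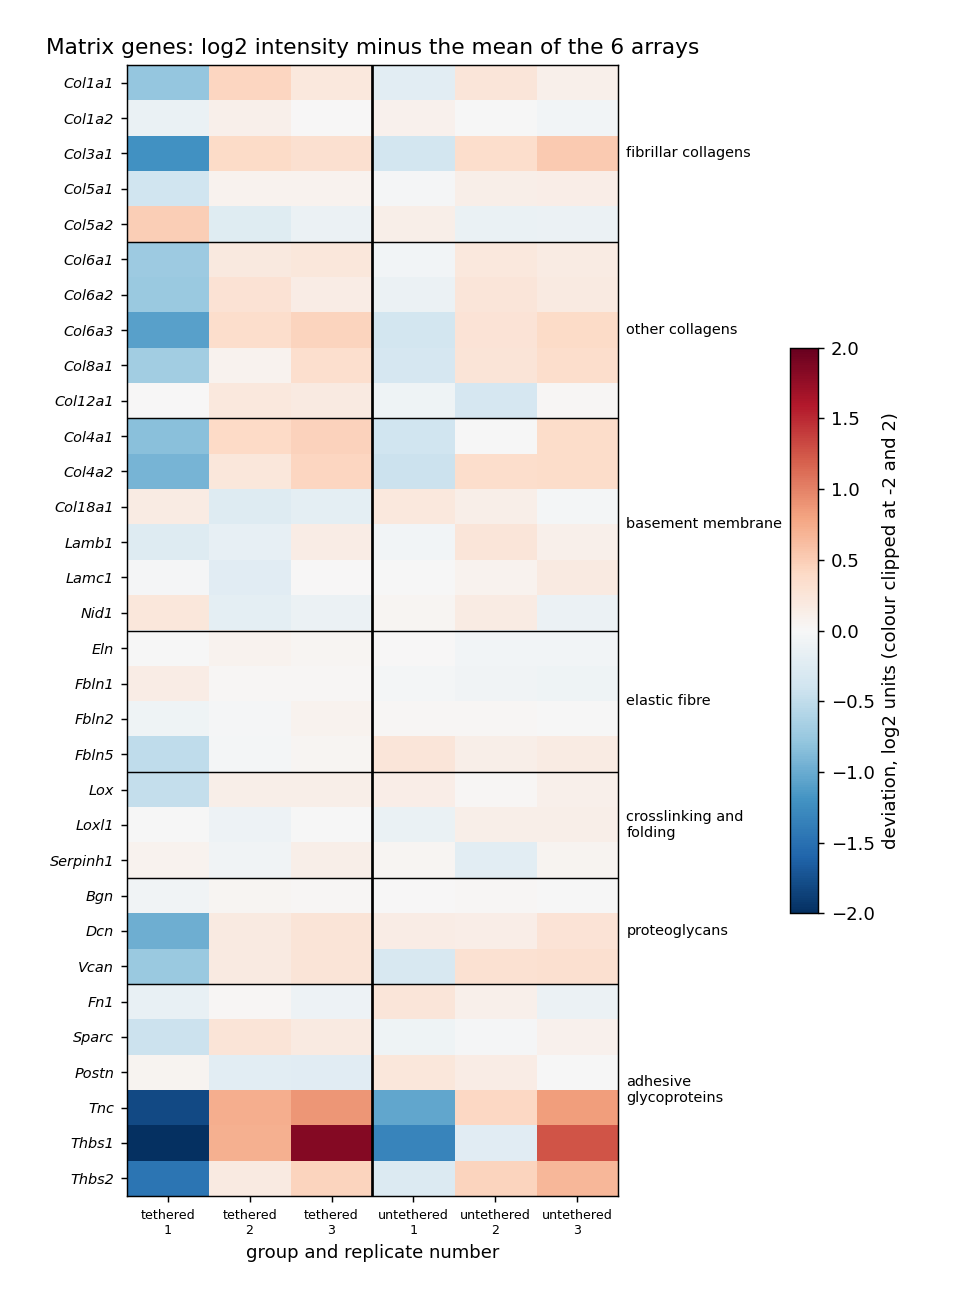
Log2 intensity of the 32 tested matrix genes in each array (columns, by group and replicate number) minus the gene's mean over the 6 arrays, in colour from -2 to 2. Tethered replicate 1 held the lowest value of 22 of the 32 genes, and Tnc, Thbs1 and Thbs2 varied most.

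Many of the low values in tethered cells sat in tethered replicate 1. It was the lowest of the 6 arrays for 22 of 32 members, and for 23.2% of all tested genes. Tethered replicate 1 lay below untethered replicate 1 for 26 of 32 members, against 48.3% of all tested genes, with a median difference of -0.37 for the members and 0.01 for all tested genes. Between tethered and untethered replicates 2 and 3, 15 of 32 members lay below 0, against 59.9% of all tested genes, with medians of 0.01 for the members and -0.04 for all tested genes. Over replicates 2 and 3 alone, the tethered minus untethered difference was 0.02 for Dcn, -0.09 for Col3a1, 0.17 for Tnc and 0.75 for Thbs1, in place of -0.36, -0.34, -0.14 and 0.19 over all 3. Other members were lower in tethered replicates 2 and 3 as well, among them Postn (-0.29), Col18a1 (-0.27), Lamc1 (-0.22) and Fbln5 (-0.14). These values describe single arrays and were not tested. A control for RNA quality, the 5' minus 3' log2 signal of the transferrin receptor, was -2.09, -1.67 and -1.55 in tethered replicates 1, 2 and 3, against -2.81, -3.07 and -1.52 in untethered replicates 1, 2 and 3. The same measure for Gapdh was 0.095, 0.088 and 0.082 in tethered cells, against 0.038, -0.060 and 0.076 in untethered cells. The part of either control in the result was not tested.

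Some matrix genes differed by replicate number: Tnc and Thbs1 were several-fold lower in number 1. The labels number the samples 1 to 3 in both groups without saying what a number stands for, so this comparison shows only whether same-numbered arrays lie together. A moderated F test for number, fitted beside the group, called 5 of 32 members, where it called 5.07% of all tested genes and 5.16% of all tested probe sets. Number 1 was lower on average for 25 of 32 members, against 56.9% of all tested genes. It was lower by over 1 log2 unit for 6 of 32, against 1.65%. The 5 were Tnc and Thbs1 among the adhesive glycoproteins, Col8a1 and Col4a2 among the collagens, and Vcan among the proteoglycans, and in each both arrays numbered 1 lay below the other 4. Of all tested genes, 4.77% were called with that same order. These calls were near the threshold: 0 members were called when all probe sets were tested without the filter, 1 when the probe sets of a gene were averaged, and 0 without tethered replicate 3 or without untethered replicate 3. The count was 3 without tethered replicate 1 and 13 without untethered replicate 1.

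The adhesive glycoproteins held the largest differences. Tnc, tenascin C, had 10.38 and 11.14 in the tethered and untethered arrays numbered 1, against 12.90 and 13.06 in tethered replicates 2 and 3 and 12.60 and 13.02 in untethered replicates 2 and 3. That is a difference of -2.13 on the log2 scale, 4.39-fold lower in number 1 (limma F test, adjusted p = 0.0282). Thbs1, thrombospondin 1, which activates latent TGF-beta and restrains vessel growth, had 7.92 and 8.86 in the tethered and untethered arrays numbered 1, against 10.89 and 12.01 in tethered replicates 2 and 3 and 9.96 and 11.44 in untethered replicates 2 and 3. Its difference was -2.68, or 6.42-fold (limma F test, adjusted p = 0.0458), and numbers 2 and 3 were apart as well, with number 3 higher in both groups. Thbs2, a related thrombospondin, had a difference of -1.30 (limma F test, adjusted p = 0.0739) and did not pass. Of the other adhesive proteins, Sparc had a difference of -0.39, and Fn1 and Postn had 0.06 and 0.22, above 0.

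Among the collagens, Col8a1 and Col4a2 were called, both lower in number 1. Col8a1, a short-chain collagen of vessel walls and basement membranes, had 10.16 and 10.52 in the tethered and untethered arrays numbered 1, against 10.92 and 11.20 in tethered replicates 2 and 3 and 11.11 and 11.21 in untethered replicates 2 and 3. The difference was -0.77, or 1.70-fold (limma F test, adjusted p = 0.0372). Col4a2 had 10.06 and 10.55 in the tethered and untethered arrays numbered 1, against 11.21 and 11.43 in tethered replicates 2 and 3 and 11.34 and 11.35 in untethered replicates 2 and 3. The difference was -1.03, or 2.04-fold (limma F test, adjusted p = 0.0402). Its partner Col4a1, whose annotated start lies 21 bases from that of Col4a2 on the opposite strand of chromosome 8 in GRCm38.p6, had 10.76 and 11.20 in the tethered and untethered arrays numbered 1, against 12.00 and 12.06 in tethered replicates 2 and 3 and 11.59 and 11.96 in untethered replicates 2 and 3. Col4a1 did not pass on this probe set (difference -0.92, limma F test, adjusted p = 0.0937) and passed on its second one (difference -1.20, limma F test, adjusted p = 0.0303).

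**Figure D2:**
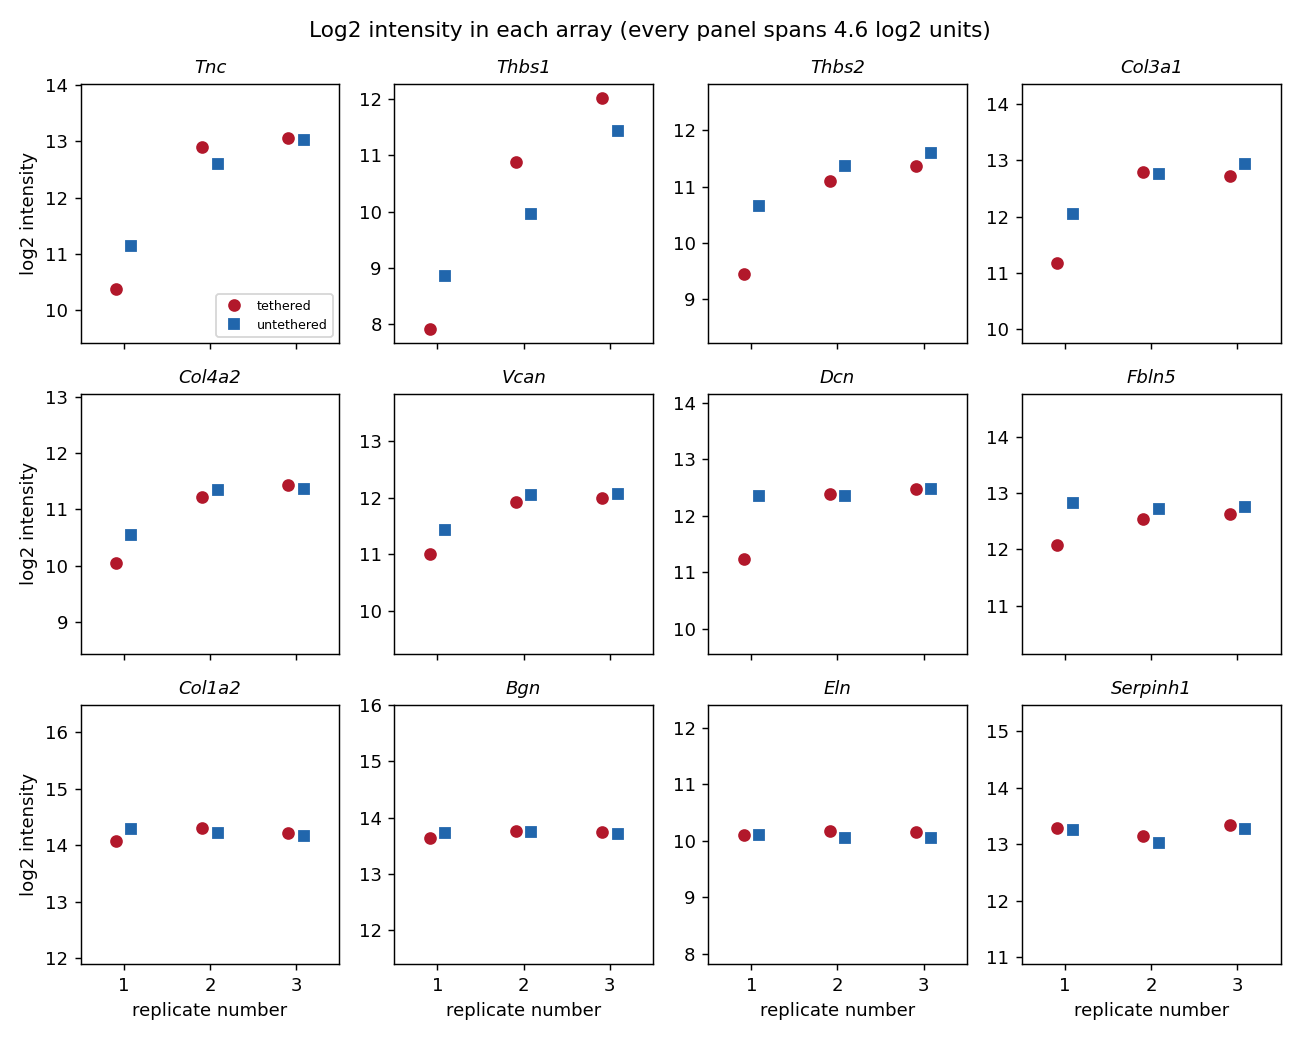
Log2 intensity of 12 matrix genes on their brightest probe sets (vertical axes, of equal span in every panel) by replicate number (horizontal axes). Circles are tethered and squares untethered arrays. Tnc, Thbs1, Thbs2, Col3a1, Col4a2 and Vcan were lowest in both arrays numbered 1, Dcn and Fbln5 were lowest in tethered replicate 1, and Col1a2, Bgn, Eln and Serpinh1 stayed nearly level.

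The fibrillar and type VI collagens had values in the same direction that did not pass. Col3a1 had a difference of -1.18, or 2.27-fold (limma F test, adjusted p = 0.0665), with the arrays in the order given above. Col6a3 had 11.15 and 11.87 in the tethered and untethered arrays numbered 1, against 12.58 and 12.67 in tethered replicates 2 and 3 and 12.50 and 12.61 in untethered replicates 2 and 3, a difference of -1.08, or 2.12-fold (limma F test, adjusted p = 0.0782). Col6a1 had 11.06 and 11.72 in the tethered and untethered arrays numbered 1, against 11.97 and 12.00 in tethered replicates 2 and 3 and 11.98 and 11.94 in untethered replicates 2 and 3, a difference of -0.58. Col6a2 (-0.65) and Col1a1 (-0.74) were close to it, and Col5a1 had -0.31. All 6 of these genes had both arrays numbered 1 below the other 4. Col5a2 ran the other way, at 12.92 and 12.54 in the tethered and untethered arrays numbered 1, against 12.18 and 12.31 in tethered replicates 2 and 3 and 12.29 and 12.31 in untethered replicates 2 and 3 (difference 0.46, limma F test, adjusted p = 0.181). It and Col18a1 (difference 0.28) were the 2 members with both arrays numbered 1 above the other 4.

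Among the proteoglycans, Vcan had 11.01 and 11.42 in the tethered and untethered arrays numbered 1, against 11.92 and 12.00 in tethered replicates 2 and 3 and 12.05 and 12.07 in untethered replicates 2 and 3. The difference was -0.79, or 1.73-fold (limma F test, adjusted p = 0.0379), and the call was lost after quantile normalization (adjusted p = 0.0758). Dcn had a difference of -0.63, carried by the tethered array alone, and Bgn of -0.05. Elastic fibre genes stayed within 0.21 of 0, from -0.21 for Fbln5 to 0.08 for Fbln1, with Eln at -0.005. The crosslinking and folding genes lay between -0.26 for Lox and 0.08 for Serpinh1.

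Set side by side, the classes differed in both their medians and their counts. For number 1 minus numbers 2 and 3, the 13 collagens had a median of -0.65 with 2 called, the 4 tested elastic fibre genes a median of -0.03 with 0 called, and the 3 tested proteoglycans a median of -0.63 with 1 called. By class, the medians were -0.31 for the 5 fibrillar collagens, -0.65 for the 5 other collagens, -0.13 for the 6 basement membrane genes, -0.10 for the 3 crosslinking and folding genes and -0.85 for the 6 adhesive glycoproteins. The median over all tested genes was -0.03. After quantile normalization the elastic fibre and the crosslinking medians lay above 0, at 0.07 and 0.10. Without tethered replicate 1 the medians were -0.13 for fibrillar collagens, -0.33 for other collagens, -0.07 for proteoglycans and -0.46 for adhesive glycoproteins, and 0.04 for the crosslinking genes. Without untethered replicate 1 they were -0.50, -0.95, -1.002 and -1.23 for the first 4 of these classes. Both arrays numbered 1 lay below the other 4 in 14 of 32 members, where 25% of all tested genes did so, and above the other 4 in 2 of 32, where 12% did. At an unadjusted p under 0.05 the limma F test gave 9 of the 13 collagens, 0 of the 4 elastic fibre genes and 1 of the 3 proteoglycans, against 21.2% of all tested genes. These are counts of few genes, and the difference between the classes was not tested.

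**Figure D3:**
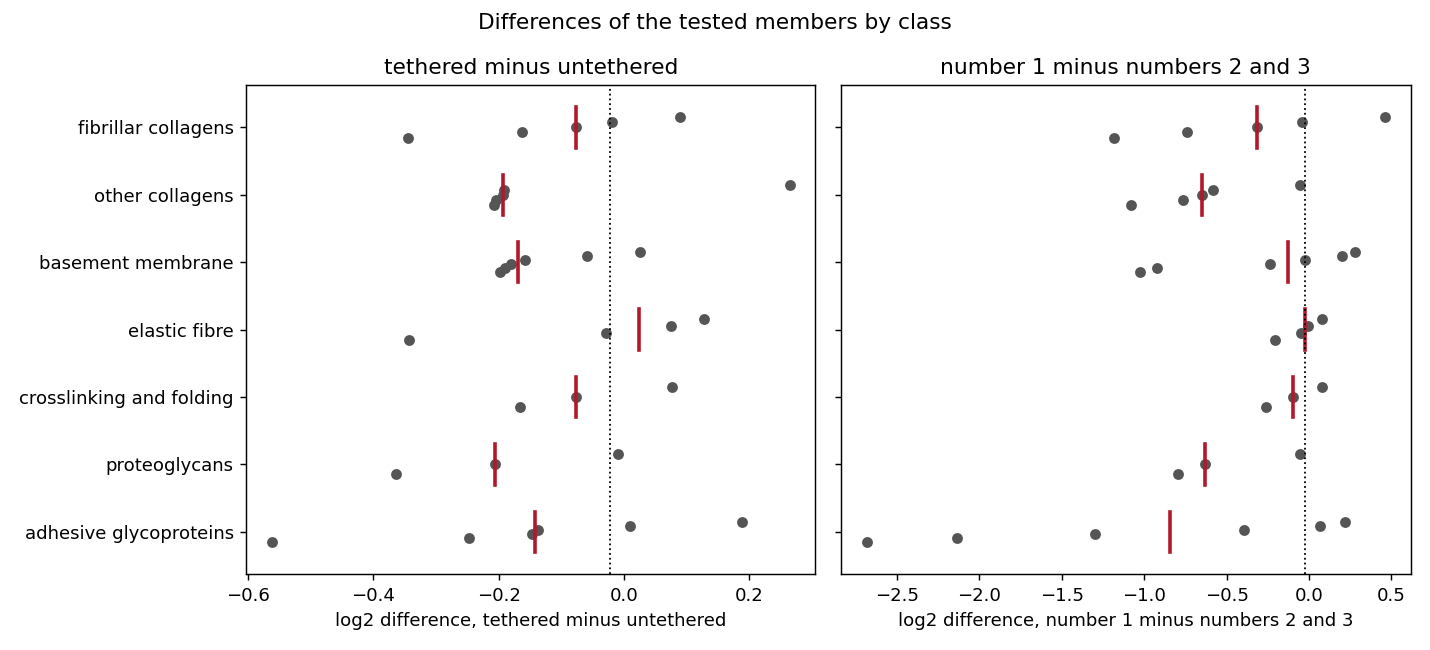
Log2 differences of the tested members by class (rows), tethered minus untethered on the left and number 1 minus numbers 2 and 3 on the right, with different horizontal scales. Points are genes, offset vertically only to keep them apart, red bars are class medians and dotted lines the medians of all tested genes (-0.02 and -0.03). Elastic fibre genes lay near 0 by number, at a median of -0.03, and adhesive glycoproteins farthest from it, at -0.85.

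Within each group taken alone, 17 of 32 members were lower in number 1 in both, against 41.1% of all tested genes. Number 1 lay below the mean of numbers 2 and 3 for 24 of 32 members within tethered cells, against 54.8% of all tested genes, and for 19 of 32 within untethered cells, against 59.5%. The median within tethered cells was -0.49 for the members and -0.02 for all tested genes, and within untethered cells -0.12 and -0.04. Thbs1 stood at -3.52 within tethered and -1.84 within untethered cells, Tnc at -2.60 and -1.67, Thbs2 at -1.77 and -0.82, and Col3a1 at -1.57 and -0.80, in the same order of groups. Dcn stood at -1.20 within tethered and -0.06 within untethered cells, Lox at -0.59 and 0.07, and Fbln5 at -0.51 and 0.10, in the same order. With 1 array of number 1 in each group, this difference between the groups could not be tested.

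**Figure D4:**
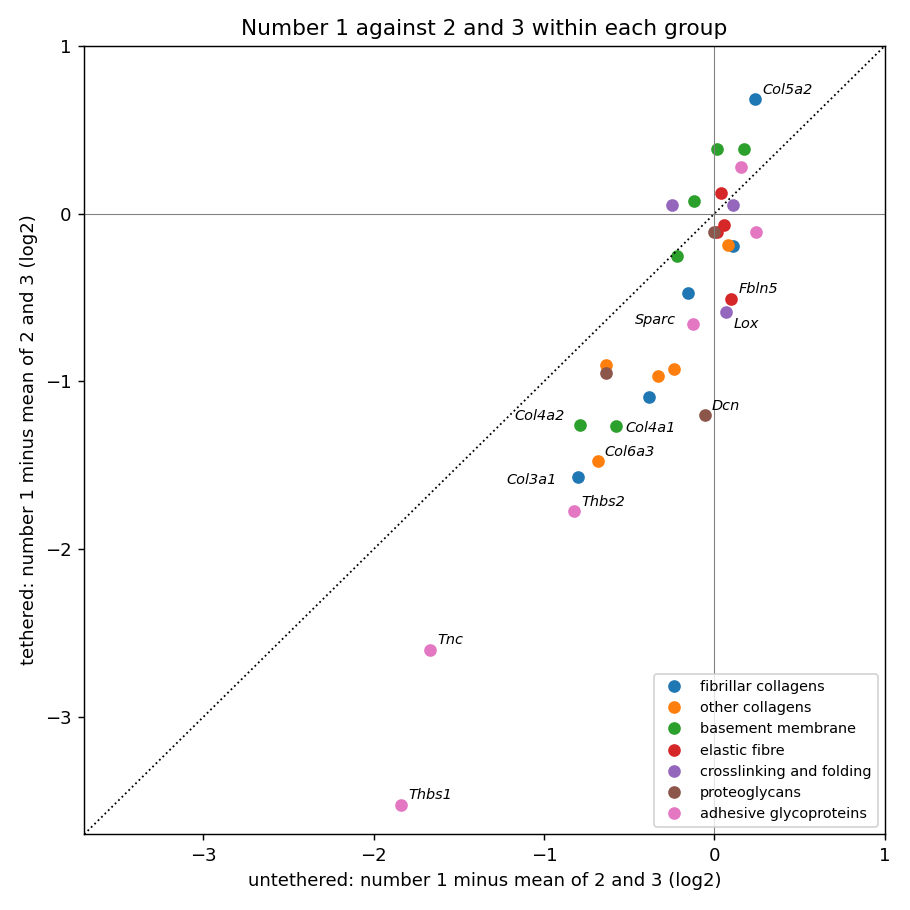
Number 1 minus the mean of numbers 2 and 3 on the log2 scale, within tethered cells (vertical axis) and within untethered cells (horizontal axis), 1 point for each of the 32 tested genes. The dotted line marks equal values. Thbs1, at -3.52 and -1.84, and Tnc, at -2.60 and -1.67, lay low in both groups, and Dcn, at -1.20 and -0.06, in the tethered one.

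The sequence before the annotated start is shown for 3 of the 5 genes called by number, Tnc, Vcan and Col8a1, and for Col1a2. Col1a2 stayed level on its brightest probe set. On its dimmer tested probe set both arrays numbered 1 lay below the other 4 (difference -0.26, limma F test, adjusted p = 0.365). Each line gives the 200 bases before the start, 5′ to 3′ on the gene's strand, from RefSeq on GRCm38.p6. Capitals mark matches on either strand to TATAAA (the TATA box), CCAAT (the box bound by NF-Y), GGGCGG (a GC box), TGANTCA (the AP-1 element) or GGAATG (the TEAD element), and no matches overlap in these 4 windows. The windows lie at chr4:64047016-64047215 on the minus strand for Tnc (the first of its 2 listed starts), chr13:89742513-89742712 on the minus strand for Vcan, chr16:57754738-57754937 on the minus strand for Col8a1 and chr6:4505418-4505617 on the plus strand for Col1a2.
Tnc: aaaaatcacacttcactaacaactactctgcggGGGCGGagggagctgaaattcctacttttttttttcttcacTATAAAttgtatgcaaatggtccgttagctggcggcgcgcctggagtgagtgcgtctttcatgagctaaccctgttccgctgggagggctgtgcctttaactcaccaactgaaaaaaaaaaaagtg
Vcan: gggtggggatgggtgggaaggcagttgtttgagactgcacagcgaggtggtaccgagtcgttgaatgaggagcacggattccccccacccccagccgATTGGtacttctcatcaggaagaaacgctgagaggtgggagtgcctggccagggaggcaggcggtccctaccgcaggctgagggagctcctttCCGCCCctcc
Col8a1: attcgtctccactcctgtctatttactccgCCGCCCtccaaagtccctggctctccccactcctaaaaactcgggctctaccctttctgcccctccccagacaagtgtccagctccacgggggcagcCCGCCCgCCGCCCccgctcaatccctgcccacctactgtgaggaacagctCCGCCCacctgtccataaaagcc
Col1a2: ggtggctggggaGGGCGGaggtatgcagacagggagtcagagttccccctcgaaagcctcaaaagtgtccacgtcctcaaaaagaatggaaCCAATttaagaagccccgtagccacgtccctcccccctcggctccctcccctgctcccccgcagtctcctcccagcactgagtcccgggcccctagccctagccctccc

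The Tnc window held the letters TATAAA, from 126 to 121 bases before the start. Of all 32851 listed windows of that length, 9.96% held these letters at some place. The Vcan and Col1a2 windows each held a CCAAT box, on the opposite strand in Vcan and on the gene's strand in Col1a2, as 29.3% of all windows did. All 4 held a GC box, 4 of them in Col8a1, as 31.0% of all windows did. Of 22 members with a window (the first listed start), 14 held a GC box, 8 a CCAAT box, 3 the letters TATAAA, 3 a TEAD element and 1 an AP-1 element. The AP-1 and TEAD letters occur in 5.48% and 10.1% of all windows. These matches describe letters in a short window and were not tied to the expression values.

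Probe sets of 1 gene mostly moved together by number and less so by group. For 20 of 23 genes with at least 2 tested probe sets, the number 1 difference had the same sign on each of them, and for 11 of 23 the tethered minus untethered difference did. Over all 61 tested probe sets of the members, 8 were called by number, from 7 genes, against 5.16% of all tested probe sets, and 0 by group. Groups did not overlap for 6 of the 61, against 8.16% of all tested probe sets. The genes added to the 5 above were Col4a1 and Thbs2, each through a dimmer probe set. Of the 5 themselves, Tnc and Thbs1 were each called on 1 of 2 tested probe sets. Vcan was called on 1 of 3, Col8a1 on 2 of 3 and Col4a2 on the 1 tested. Those not called had limma F test adjusted p = 0.235 (Tnc), 0.0605 (Thbs1), 0.0996 and 0.142 (Vcan) and 0.232 (Col8a1). The 2 tested probe sets of Thbs1 gave -2.68 and -2.76, while those of Tnc gave -2.13 and -0.76. For Dcn the dimmer probe set stood at 0.09, against -0.63 for the brightest.

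**Figure D5:**
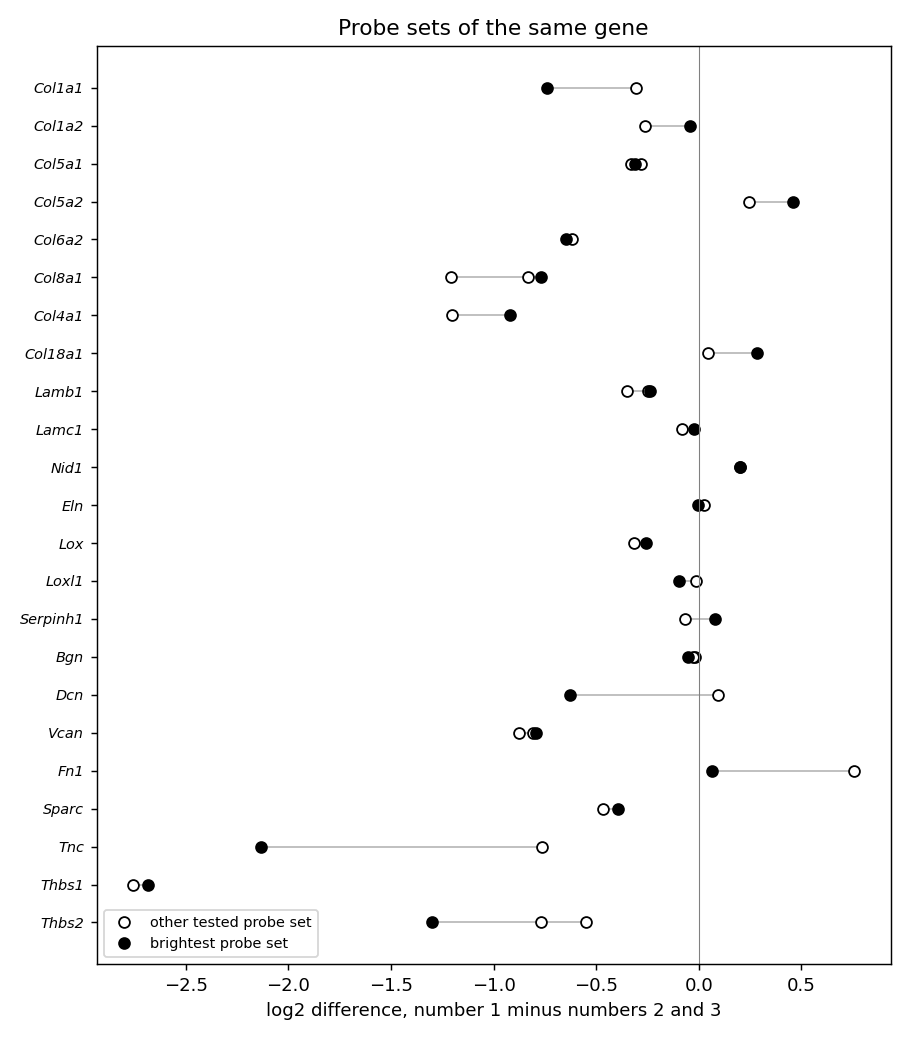
Number 1 minus numbers 2 and 3 on the log2 scale for every tested probe set of the 23 genes with at least 2, with filled circles for the brightest and open circles for the others. Thbs1, Col6a2 and Nid1 had closely placed probe sets, while Tnc ran from -2.13 to -0.76 and Fn1 from 0.06 to 0.76.

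Genes that process collagen or build other parts of the matrix were read from the same fits. Of 15 collagen processing genes, 12 were tested, 0 were called by group or by number, and 11 of 12 had tethered minus untethered values below 0 (median -0.11), against 5.07% of all tested genes called by number and 58.8% below 0. Groups did not overlap for 1 of the 12, a share near the 8.4% of all tested genes. This was Plod1, a lysyl hydroxylase, with 10.65, 10.58 and 10.58 in tethered cells, against 11.08, 10.92 and 10.68 in untethered cells (difference -0.30, SE 0.11). P4ha1 and P4ha2, prolyl hydroxylases that stabilise the triple helix, had -0.41 (SE 0.17) and -0.38 (SE 0.19). By number, Crtap, a partner of prolyl 3-hydroxylase, came closest (difference -0.58, limma F test, adjusted p = 0.0529). Of 30 further matrix genes, 22 were tested, 0 were called by group and 1 by number, a share near the 5.07% of all tested genes. That gene was Ltbp1, which stores latent TGF-beta in the matrix, at 9.12 and 9.83 in the tethered and untethered arrays numbered 1, against 10.86 and 11.25 in tethered replicates 2 and 3 and 10.97 and 11.14 in untethered replicates 2 and 3 (difference -1.58, limma F test, adjusted p = 0.0307).

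Genes of dividing cells moved with the same arrays. Of 7 tested cycling genes, 6 were called by number with both arrays numbered 1 below the other 4, against 4.77% of all tested genes. Among them were Mki67 (difference -1.59, limma F test, adjusted p = 0.0131) and Cdk1 (-1.50, limma F test, adjusted p = 0.0113). The summed intensity of the cycling genes lay between 15919 and 17961 in the arrays numbered 1, against 39018 to 44289 in numbers 2 and 3. Of 8 tested fibroblast markers, Twist1 (-0.54) and Pdgfra (-1.20) were called by number in the same direction, while Pdgfrb (0.35) and P4hb (0.03) lay above 0. The summed intensity of all 9 lay between 55168 and 61876 in number 1, against 67491 to 71459 in numbers 2 and 3. Among markers of other cell types 1 was called by number, the macrophage gene Cd14 (-0.51). Of all tested genes, 5.07% were called by number. The summed intensity of the 6 macrophage markers lay between 2860 and 3138 in number 1, against 3258 to 3673 in numbers 2 and 3, and no marker was listed at 0. The part of the cycling genes, or of any other marker list, in the matrix differences was not tested.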

How the data were processed

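The deposited values are linear intensities, 1 per probe set and array, as processed by the authors; biotin labelling followed Affymetrix protocols per the labels, and which software summarised and scaled them is not stated in the sources used. No normalization was added. A floor of 16 was applied before the log2. Gene names came from the platform annotation, updated through the gene identifier to a RefSeq gene table of GRCm38.p6 (99.4% of single-symbol identifiers found); 64 controls were left out. Probe sets with a mean log2 intensity above the median of 8.93 were tested (22518). Limma 3.58.1 in R 4.3.3 compared tethered with untethered arrays without covariates, and a moderated F test with 2 degrees of freedom tested replicate number beside the group. P-values were two-sided, adjusted by Benjamini-Hochberg over all probe sets tested and called under 0.05. The brightest probe set stood for a gene. Both fits were tested on simulated data. SE is the moderated standard error of the limma fit of tethered against untethered, with 3 arrays per group.

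The members, classes and further lists were chosen with earlier results of these data known, among them that both arrays numbered 1 stand apart, so the difference of number 1 from the others was described without a test of its own. Every member is accounted for. Values in every array are given for a set of genes fixed by name. They are also given for the 2 tested members of each class with the smallest unadjusted p in each test. A few others were named after their values were seen (Col5a2, Plod1, Ltbp1, Lamb2). Settings tried were quantile normalization, median centring, no filter, a floor of 64, averaging over a gene's probe sets, a block for replicate number, and leaving out each array or both arrays numbered 1. Sequences came from RefSeq.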

Additional observations from a re-analysis of the deposited data

How the results depend on the processing

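Tethered against untethered, 0 probe sets and 0 members were called under every setting run, leave-one-out fits included. The labels state no pairing of same-numbered arrays, so the main fit took none. Same-numbered arrays correlated in their deviations from the group means at 0.71, 0.075 and 0.71 for numbers 1, 2 and 3. The spread between numbers is therefore part of the errors given for the group differences. With a replicate block 0 probe sets and 0 members were called. The tethered minus untethered difference of Lamc1 was 0.0081 with a gene's probe sets averaged, and that of Dcn 0.0182 without both arrays numbered 1 and -0.584 to 0.0372 with 1 array left out, the highest without tethered replicate 1.

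By replicate number, the counts were 645 probe sets and 0 members without the filter, 2 probe sets and 0 members without both arrays numbered 1 (where number 2 is set against 3), and 1 member with probe sets averaged, in place of 1161 and 5. Leaving out each array gave 0 to 2979 probe sets and 0 to 13 members. For number 1 minus numbers 2 and 3, quantile normalization moved the medians of fibrillar collagens to -0.17, basement membrane genes to -0.0144, elastic fibre genes to 0.0662 and crosslinking genes to 0.10, and the proteoglycan median was -0.34 without the filter and -0.27 with probe sets averaged. Leaving out each array gave -0.50 to -0.13 for fibrillar collagens, -0.95 to -0.33 for other collagens, -0.1436 to 0.0425 for crosslinking genes, -1.002 to -0.0659 for proteoglycans and -1.23 to -0.46 for adhesive glycoproteins. The tethered minus untethered median of the crosslinking genes was 0.0527 without both arrays numbered 1 and ran from -0.1425 to 0.0297 with 1 array left out. Over all settings the sign of the tethered minus untethered difference turned in 40 of 338 recomputed values, from 17 of 26 genes, and of 60 recomputed values of the 5 genes called by number, 32 were still called and 28 were not. Of 252 recomputed values of the named genes not called, 10 were called. The cause of these changes was not tested. With 3 arrays per group, dim probe sets have little precision.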

Other observations

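Some probe sets of the matrix genes held values whose order their brightest probe set did not show. The second tested probe set of Fn1 had log2 intensities of 9.16, 9.53 and 8.62 in tethered replicates 1, 2 and 3, against 11.05, 10.42 and 8.82 in untethered replicates 1, 2 and 3, a difference of -0.99 (SE 0.58) with overlapping groups. The brightest Fn1 probe set differed by -0.15 (SE 0.11). A Vcan probe set below the intensity filter took only 2 ranges of value, at 6.69, 8.54 and 8.35 in tethered replicates 1, 2 and 3 and 6.77, 6.65 and 8.45 in untethered replicates 1, 2 and 3. Untethered replicate 2 was thus low on it together with both arrays numbered 1, whereas on the brightest Vcan probe set untethered replicate 2 stood at 12.05, beside the high arrays. The dimmest tested Col8a1 probe set was also low in untethered replicate 2, at 8.48, 9.72 and 9.81 in tethered cells and 8.68, 8.51 and 9.59 in untethered cells. A Col12a1 probe set below the filter had groups that did not overlap, at 8.21, 8.28 and 8.14 in tethered cells and 8.61, 8.56 and 8.78 in untethered cells, opposite in direction to the brightest Col12a1 probe set (-0.44 against 0.26). These probe sets were picked after their values were seen, and what they read was not tested.

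Lamb2, a laminin chain of mature basement membranes, had both arrays numbered 1 above the other 4, as 12% of all tested genes did. It was picked from the 22 tested further matrix genes after its values were seen, and was not called by number. It had 10.13 and 9.69 in the tethered and untethered arrays numbered 1, against 8.49 and 8.73 in tethered replicates 2 and 3 and 9.42 and 8.78 in untethered replicates 2 and 3 (difference 1.05, limma F test, adjusted p = 0.177).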
